A study of Mus musculus with 6 samples.

Results

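The lower dose of venlafaxine was set against the untreated controls in mouse hippocampus, over 4 of the 6 arrays of the series: control 1 and control 2 against low dose 1 and low dose 2. Arrays were assigned by their labelled dose, and every gene with a probe set of its own was eligible, represented by its brightest probe set, so that 11743 of 18193 genes rose above the median of at least 2 arrays and were tested. All animals were single-housed male DBA/2 mice, with 10 animals per dose group, and they drank water that supplied 0 (control) or 30 (low dose) mg of venlafaxine per kg of body weight each day for 30 days. A further group received 100 mg per kg per day (high dose) and entered the same fit. Hippocampal RNA was pooled within a dose group by side of the brain, and 1 pool was hybridized to each Affymetrix mouse genome array. Control 1 and low dose 1 were right pools, and control 2 and low dose 2 were left pools. Control 1 and both low dose pools were hybridized on the first date, together with high dose 1 (left), whereas control 2 was hybridized on the later date with high dose 2 (right). The RNA integrity number (RIN) was 8.7 for control 1, 7.9 for control 2, 9.1 for low dose 1 and 8.9 for low dose 2. Whether the right and left pools of a dose came from different animals is not stated, so that p-values reflect only how far pools differ, which may be technical, and precision is limited by having 2 arrays in each group. Ages were not used here.

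Venlafaxine blocks the transporters that clear serotonin and noradrenaline from the synapse. Immediate early genes are transcribed within minutes of neuronal firing, when calcium and MAP kinase signals reach the nucleus and act on the factors CREB and SRF that already sit on their promoters, and their products, among them EGR and AP-1 transcription factors, then drive a later set of genes. In the hippocampus their RNA is widely used as a record of recent activity, and several are needed for lasting synaptic change.

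Promoters of genes on which the results turn are shown with any matches to sequences through which such signals are known to act. Of 7 genes looked up, 5 had promoters in the table supplied: Egr2 (5 windows, 1 of which is printed), Fos and Avp, which passed the test below, and Nr4a1 and Dusp1, which were added after their values had been seen. Egr1 and Arc were not matched. The sequences are from RefSeq (GRCm38.p6) and run from 250 bases before the transcription start to 50 bases after it, read 5′ to 3′ on the strand of the gene. Capitals mark matches, on either strand, to the cAMP response element (TGACGTCA), its shorter core (TGACG, which also lies inside the full element), the AP-1 site (TGANTCA), the EGR site (GCGNGGGCG) and the CArG box bound by SRF.
Egr2 (chr10:67537619-67537918, plus strand): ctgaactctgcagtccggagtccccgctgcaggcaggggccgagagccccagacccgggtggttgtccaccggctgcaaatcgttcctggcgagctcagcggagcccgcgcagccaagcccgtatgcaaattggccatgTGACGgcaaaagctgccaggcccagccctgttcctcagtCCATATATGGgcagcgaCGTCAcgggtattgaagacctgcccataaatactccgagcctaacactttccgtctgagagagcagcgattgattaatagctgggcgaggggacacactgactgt
Fos (chr12:85473640-85473939, plus strand): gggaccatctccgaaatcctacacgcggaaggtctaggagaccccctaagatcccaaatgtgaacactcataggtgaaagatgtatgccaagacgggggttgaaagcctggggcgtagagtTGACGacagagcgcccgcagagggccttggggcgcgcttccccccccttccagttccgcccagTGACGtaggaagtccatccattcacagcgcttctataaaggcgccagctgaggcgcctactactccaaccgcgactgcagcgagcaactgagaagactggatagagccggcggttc
Nr4a1 (chr15:101266596-101266895, plus strand): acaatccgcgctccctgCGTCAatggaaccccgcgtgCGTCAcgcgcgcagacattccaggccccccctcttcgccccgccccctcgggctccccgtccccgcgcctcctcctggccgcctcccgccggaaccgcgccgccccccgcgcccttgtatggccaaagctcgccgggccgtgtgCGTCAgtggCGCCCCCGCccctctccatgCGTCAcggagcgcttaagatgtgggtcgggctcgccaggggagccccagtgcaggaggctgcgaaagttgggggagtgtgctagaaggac
Dusp1 (chr17:26508423-26508722, minus strand): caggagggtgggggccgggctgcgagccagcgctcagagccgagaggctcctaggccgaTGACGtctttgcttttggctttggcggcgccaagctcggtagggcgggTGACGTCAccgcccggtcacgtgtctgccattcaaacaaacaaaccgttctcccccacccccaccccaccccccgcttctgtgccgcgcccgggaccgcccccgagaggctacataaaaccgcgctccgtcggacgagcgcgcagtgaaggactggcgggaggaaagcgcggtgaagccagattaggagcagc
Avp (chr2:130582539-130582838, minus strand): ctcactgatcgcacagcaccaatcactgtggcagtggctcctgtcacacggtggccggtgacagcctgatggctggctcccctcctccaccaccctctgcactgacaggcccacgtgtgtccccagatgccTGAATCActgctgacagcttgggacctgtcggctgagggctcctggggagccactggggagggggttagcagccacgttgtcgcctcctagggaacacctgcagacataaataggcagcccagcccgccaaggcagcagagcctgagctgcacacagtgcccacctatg
Of the 5 Egr2 windows 1 holds none of the letters searched and 1 a CArG box alone, and the printed one is among the 3, which overlap, with the most matches. This Egr2 window holds 1 CArG box, 72 bases before the start, between 2 TGACG cores. The Fos window holds 2 TGACG cores, and the Nr4a1 window 4 of them and 1 EGR site. The Dusp1 window holds 1 full element, whose 2 strands account for 2 of the 3 cores found there. The Avp window, by contrast, holds 1 AP-1 site and none of the other letters searched. Of 32851 promoter windows in the table, 20.8% hold the core, 1.79% the full element, 7.81% the AP-1 site, 5.55% the EGR site and 1.63% a CArG box, so a core alone is common. A match describes the sequence only and was not related to the measured levels. Sites outside the windows were not searched, so a window without a match does not mean that the gene lacks the site.

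The arrays did not stand equally close to each other. Over all probe sets, control 1 had a Pearson correlation of 0.998 with each low dose array, while control 2, the array of the later date with the lowest RIN, had a correlation of 0.995 with control 1 and with each low dose array. Between the controls, 170 genes differed by more than 0.5 on the log2 scale, against 4 genes between the low dose arrays. The median gene at the low dose had a log2 difference of -0.02 from control 1 and of 0.09 from control 2. The mean of the low dose arrays differed by more than 0.5 from control 1 in 11 genes and from control 2 in 142 genes. For the gene lists and the genes with the largest differences, the difference from control 1, which shares the date of both low dose arrays, is therefore given beside the difference from the mean of both controls. All 12 defining hippocampal genes, among them Prox1 of granule cells and Fibcd1 of CA1 pyramidal cells, were above the filter. So were 11743 of all 18193 genes, 20 of 21 neocortical layer genes on the array and 16 of 18 striatal genes. Passing the filter therefore does not single out the labelled tissue.

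All 4 genes that fell at the low dose are induced by neuronal activity. Egr2, Egr1, Arc and Fos fell and Avp rose, and no other gene of the 11743 passed at an adjusted p under 0.05 (limma with Benjamini-Hochberg adjustment), so that calls made up 0.0426% of the genes tested (0.0341% lower and 0.00852% higher). At an unadjusted p under 0.05 there were 390 genes (3.32%), of which 269 were higher and 121 lower. In whole tissue, fewer cells of a type and less RNA per cell cannot be told apart.

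Egr2 encodes a zinc finger transcription factor that binds EGR sites. Its log2 level was 8.64 on control 1 and 9.06 on control 2, against 7.94 on low dose 1 and 7.90 on low dose 2. Both low dose arrays lay below both controls, with an SD of 0.025 (n = 2) against 0.30 (n = 2) between the controls, and it fell by 0.93 in log2 units, or 1.90-fold (SE 0.12, adjusted p = 0.000394 in limma). The gene has a second probe set, which gave a difference of -0.79. Against control 1 alone the difference was -0.72, and it was -0.70 between the right pools and -1.16 between the left pools.

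Egr1, a close relative of Egr2 with the same binding site, is expressed at a high level in the resting hippocampus. It measured 12.95 and 13.16 on the controls and 12.32 and 12.46 on the low dose arrays, a fall of 0.67 (SE 0.11, limma adjusted p = 0.0138) or 1.59-fold. The groups did not overlap, and the difference was -0.56 against control 1.

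Arc encodes a protein of active synapses that helps to remove AMPA receptors. Its levels were 10.58 on control 1, 10.33 on control 2, 9.74 on low dose 1 and 9.87 on low dose 2, so that it fell by 0.65 (SE 0.11, limma adjusted p = 0.0138) or 1.57-fold. Here control 1 was the higher control, the groups did not overlap, and the difference from control 1 was -0.78.

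Fos encodes a partner in the AP-1 transcription factor. It read 11.06 and 11.21 on the controls and 10.41 and 10.64 on the low dose arrays, and it fell by 0.61 (SE 0.11, limma adjusted p = 0.0193) or 1.53-fold. Again no array of one group reached the other, and the difference from control 1 was -0.54. All 4 of these genes kept their direction in each of 20 alternative analyses. Many of these leave the difference of the group means unchanged. Leaving out 1 array cannot reverse groups that do not overlap, so the direction was tested by only some of them. In log2 fold change Egr2 ranged from -1.14 to -0.63 and Egr1 from -0.77 to -0.44. Arc ranged from -0.84 to -0.52 and Fos from -0.73 to -0.43. Their calls ended without low dose 1 (limma adjusted p = 0.922 for each) and without low dose 2 (1.00 for each), which leaves 1 array in the group, assumed to vary like the others. With RIN as a covariate the calls of Egr1 (-0.44, limma adjusted p = 0.405) and Fos (-0.43, adjusted p = 0.411) ended as well. No gene, these included, passed without the filter on low levels, with the probe sets of a gene averaged, with every probe set tested or after quantile normalization.

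**Figure D1:**
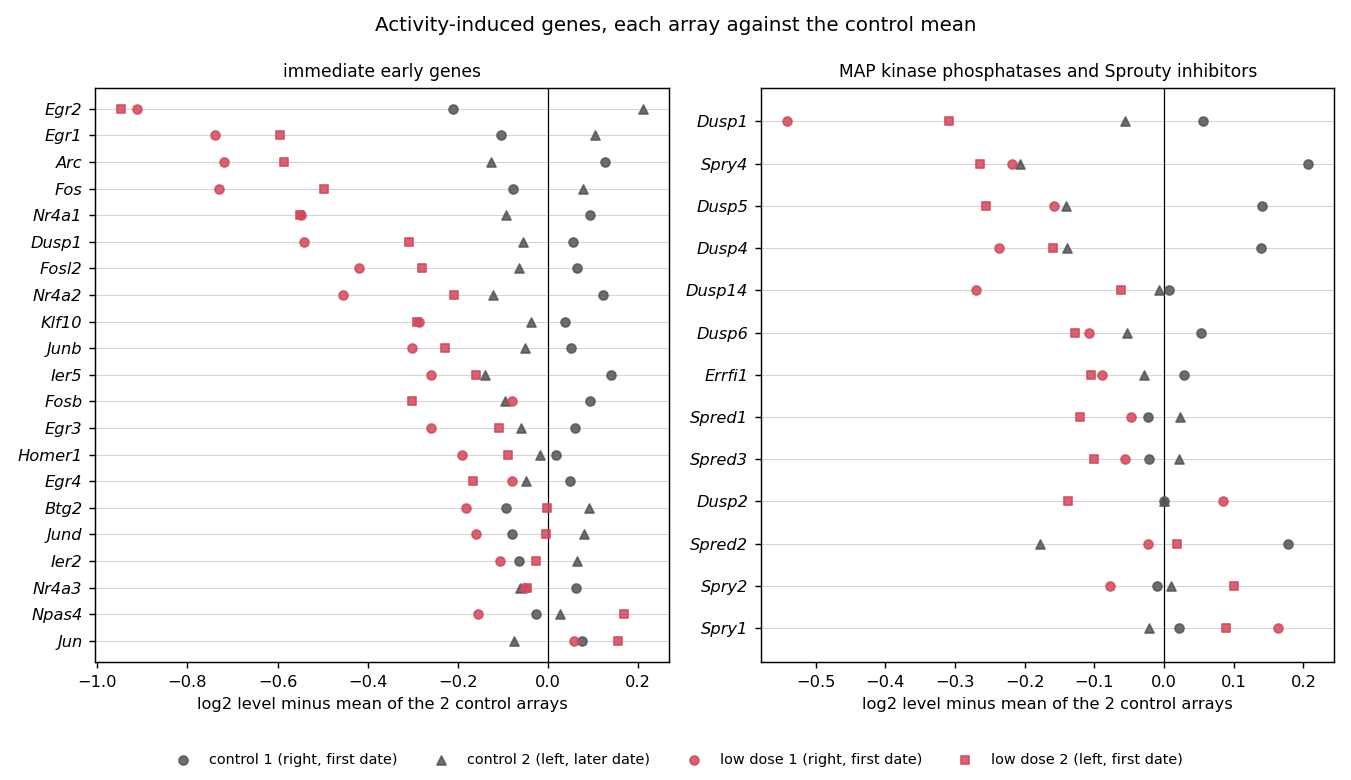
Log2 level of each immediate early gene (left panel, 21 genes) and each MAP kinase phosphatase or Sprouty-type inhibitor (right panel, 13 genes) on the 2 control arrays (grey) and the 2 low dose arrays (red), minus the mean of the controls; shape gives side and date. Both low dose arrays lie to the left of both controls for 14 of the 21 immediate early genes and for 9 of the 13 inhibitors.

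Most other immediate early genes lay on the same side without passing the test. The counts and medians that follow are for the whole list. They include Egr2, Egr1, Arc and Fos, which were called from these same arrays. Of 22 listed genes 21 were tested, 19 had a lower mean at the low dose (32.4% of all genes did) and 4 passed, and for 14 of them both low dose arrays lay below both controls, where 7.78% of all genes did so. The median of the list was -0.21, against 0.04 over all genes, and -0.32 against control 1, where the median of all genes was -0.02. Both low dose arrays lay below control 1 for 16 of the 21 genes, and 35.2% of all genes did so.

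Nr4a1, an orphan nuclear receptor that is induced by activity, came closest to the threshold. It read 11.16 and 10.98 on the controls and 10.52 on both low dose arrays, a difference of -0.55 (SE 0.11, limma adjusted p = 0.0793). Dusp1, a phosphatase that switches off MAP kinases, read 10.69 and 10.58 on the controls and 10.09 and 10.33 at the low dose, a difference of -0.42 (limma adjusted p = 0.793). Neither gene had overlapping groups.

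Further down the list, Fosl2 (AP-1) had a difference of -0.35, Nr4a2 (a relative of Nr4a1) -0.33, Klf10 (a zinc finger repressor) -0.29 and Junb (AP-1) -0.26, each with groups that did not overlap. Of the 6 probe sets of Nr4a2, the 4 above the filter gave differences between -0.68 and -0.24 and the others 0.02 and 0.04. The EGR family was not uniform in size, with differences of -0.18 for Egr3 and -0.12 for Egr4 beside the larger falls of Egr2 and Egr1. At the other end, Npas4, which is induced by calcium alone, measured 8.60 and 8.65 on the controls and 8.47 and 8.79 at the low dose, a difference of 0.01. Jun, the usual partner of Fos, had a difference of 0.11 with overlapping groups.

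Genes that restrain MAP kinase signalling lay lower too, although none passed. These are the dual-specificity phosphatases, which dephosphorylate MAP kinases, and the Sprouty and Spred proteins, which act upstream on Ras and Raf; several are themselves induced by that pathway. Of 13 genes, all tested, 11 had a lower mean, and the median was -0.10, or -0.17 against control 1. Both low dose arrays lay below both controls for 9 genes and below control 1 for 10, against 7.78% and 35.2% of all genes. After Dusp1, which is also among the immediate early genes, the lowest were Spry4 (-0.24), Dusp5 (-0.21), Dusp4 (-0.20) and Dusp14 (-0.17). Spry4 shows how much rests on control 1: it read 8.41 there, 8.00 on control 2, and 7.99 and 7.94 at the low dose. Spry1 lay the other way, with both low dose arrays above both controls and a difference of 0.13.

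No gene of the later activity response passed. Of 28 tested, 18 had a lower mean and 0 passed, the median was -0.04 (-0.10 against control 1), and 9 were lower and 1 was higher without overlap (7.78% and 13.4% of all genes were). The matricellular protein gene Ccn2, which in the brain also marks the deepest layer of the cortex, read 10.33 and 10.58 on the controls but 9.48 on low dose 1 and 10.21 on low dose 2, a difference of -0.61 (SE 0.15, limma adjusted p = 0.581). The low dose pools differed in this gene by 0.73, with low dose 1 the lower. Its relative Ccn1 had a difference of -0.22, the activin subunit gene Inhba -0.32, Tiparp -0.20, Nfil3 -0.21 and Per1 -0.16. Inhba was high on control 2 alone, at 9.41 against 8.87 on control 1, so that its difference from control 1 was -0.04. Bdnf, the activity-dependent neurotrophin, read 10.38 and 10.16 on the controls and 10.21 and 10.36 at the low dose, a difference of 0.01, and the prostaglandin synthase gene Ptgs2 had 0.10.

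Avp was the gene that rose. It encodes vasopressin, a peptide hormone made mainly by magnocellular and suprachiasmatic neurons of the hypothalamus, whose fibres and receptors reach the hippocampus. Its log2 level was 7.80 on control 1 and 8.00 on control 2, near the array medians of 7.79 and 7.80, against 9.32 on low dose 1 and 8.40 on low dose 2. The rise of 0.96 (SE 0.17, limma adjusted p = 0.0193) was 1.95-fold, with groups that did not overlap. The right low dose pool exceeded the left by 0.92, and the difference was 1.52 between right pools and 0.40 between left pools. Against control 1 it was 1.06. The high dose arrays read 8.01 and 8.21, between the controls and the low dose, and low dose minus high dose was 0.75 (limma adjusted p = 0.529). Avp stayed past the threshold without low dose 2 (log2 fold change 1.42, limma adjusted p = 0.0497) and not without low dose 1 (0.50, adjusted p = 0.922) or with a trended, robust prior.

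**Figure D2:**
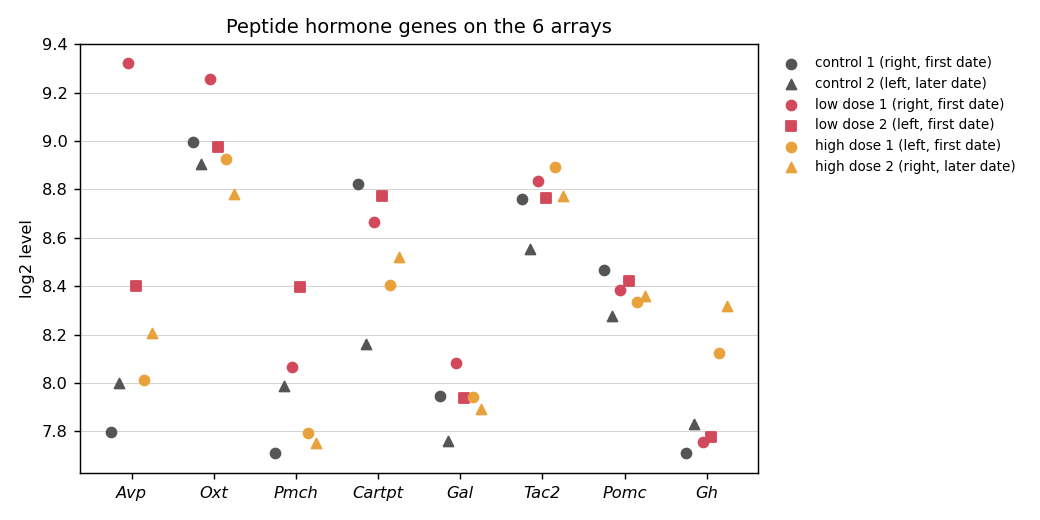
Log2 level of 8 peptide hormone genes on each of the 6 arrays, with controls in grey, low dose in red and high dose in orange; shape gives side and date. Avp is highest on low dose 1 (9.32) and next on low dose 2 (8.40), and Pmch is highest on low dose 2 (8.40).

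Peptide genes of the hypothalamus and pituitary were compared as a list that includes Avp. Of 25 listed, 14 were tested, 10 had a higher mean (67.6% of all genes did), 3 were higher without overlap (13.4% of all genes were) and the median was 0.14, or 0.04 against control 1. Oxt, the oxytocin gene next to Avp in function, read 8.99 and 8.90 on the controls and 9.26 and 8.98 at the low dose, a difference of 0.17 with overlapping groups. It was highest on low dose 1, as Avp was. Pmch, which encodes melanin-concentrating hormone of the lateral hypothalamus, read 7.71 and 7.99 on the controls and 8.07 and 8.40 at the low dose, a difference of 0.38 without overlap (limma adjusted p = 1.00). In Pmch the left low dose pool was the higher, the reverse of Avp. The orexin gene Hcrt, another marker of the lateral hypothalamus, read between 7.55 and 7.62 on these 4 arrays and was not above the filter. Gh had a difference of -0.00, Pomc 0.03 and Cartpt 0.23, the last with 8.82 on control 1 and 8.16 on control 2.

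General markers of hypothalamic tissue gave 17 tested genes of 25, of which 14 had a higher mean, 5 were higher without overlap (13.4% of all genes were) and the median was 0.11, or 0.03 against control 1. Baiap3, a regulator of vesicle release, read 8.95 and 8.91 on the controls and 9.04 and 9.36 at the low dose, a difference of 0.27. The imprinted gene Nnat read 10.59 and 10.20 on the controls and 10.70 and 10.75 at the low dose, a difference of 0.33. Relative to the control mean, the list's median was 0.06 on low dose 1, where Avp was highest, and 0.13 on low dose 2, against 0.05 on control 1 and -0.05 on control 2. The developmental factors Nkx2-1, Otp and Sim1, which define hypothalamic neurons, were not above the filter. The part of these markers in the Avp result was not tested.

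Myelin genes lay slightly above the controls in nearly every member, and none passed the test on its own. Myelin is the sheath that oligodendrocytes wrap around axons. Of 22 tested genes all had a higher mean, for 19 both low dose arrays lay above both controls (13.4% of all genes did), and for 21 both lay above control 1, where 18.7% of all genes did so. The median was 0.25 (0.15 against control 1, 0.35 against control 2), beside 0.04, -0.02 and 0.09 over all genes. Differences ran from 0.10 in Mbp to 0.37 in Cldn11, and 14 genes had an unadjusted p under 0.05 (3.32% of all genes did, in either direction).

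Opalin, a membrane protein of mature oligodendrocytes, read 9.86 and 9.88 on the controls and 10.13 and 10.27 at the low dose, a difference of 0.33 (SE 0.10, limma adjusted p = 1.00). Its controls were close together, and its difference from control 1 was also 0.33. Mal, a lipid raft protein of the sheath, read 12.21 and 12.06 on the controls and 12.43 and 12.52 at the low dose, a difference of 0.34 and of 0.27 against control 1. Aspa, which breaks down N-acetylaspartate in oligodendrocytes, read 9.96 and 9.88 on the controls and 10.16 and 10.30 at the low dose. In all 3 genes the low dose arrays lay above both controls.

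Structural genes of the sheath were less even. Mobp had a difference of 0.23 from either control, and Mag and Mog had 0.33 and 0.32 but only 0.11 and 0.12 against control 1. Cldn11, the tight junction protein of myelin, read 10.78 on control 1 and 10.19 on control 2, and 10.93 and 10.79 at the low dose, so that low dose 2 lay only just above control 1. Mbp has 8 probe sets, which gave differences from -0.17 to 0.62. The transcription factors Olig1, Olig2, Sox10 and Myrf had 0.26, 0.30, 0.17 and 0.23.

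Precursor cells were read apart. Of 11 tested genes of oligodendrocyte precursors 10 had a higher mean (67.6% of all genes did) and 3 were higher without overlap (13.4% of all genes were). The median was 0.06, and 0.00 against control 1. At the high dose the myelin list had a median of -0.03 against the controls, and the median of low minus high dose was 0.25. Relative to the control mean, the list's median stood at 0.20 on low dose 1 and 0.31 on low dose 2, the arrays with the highest RIN, and at 0.09 on high dose 1 and -0.10 on high dose 2. With RIN as a covariate in place of none, the median of the list was 0.09.

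**Figure D3:**
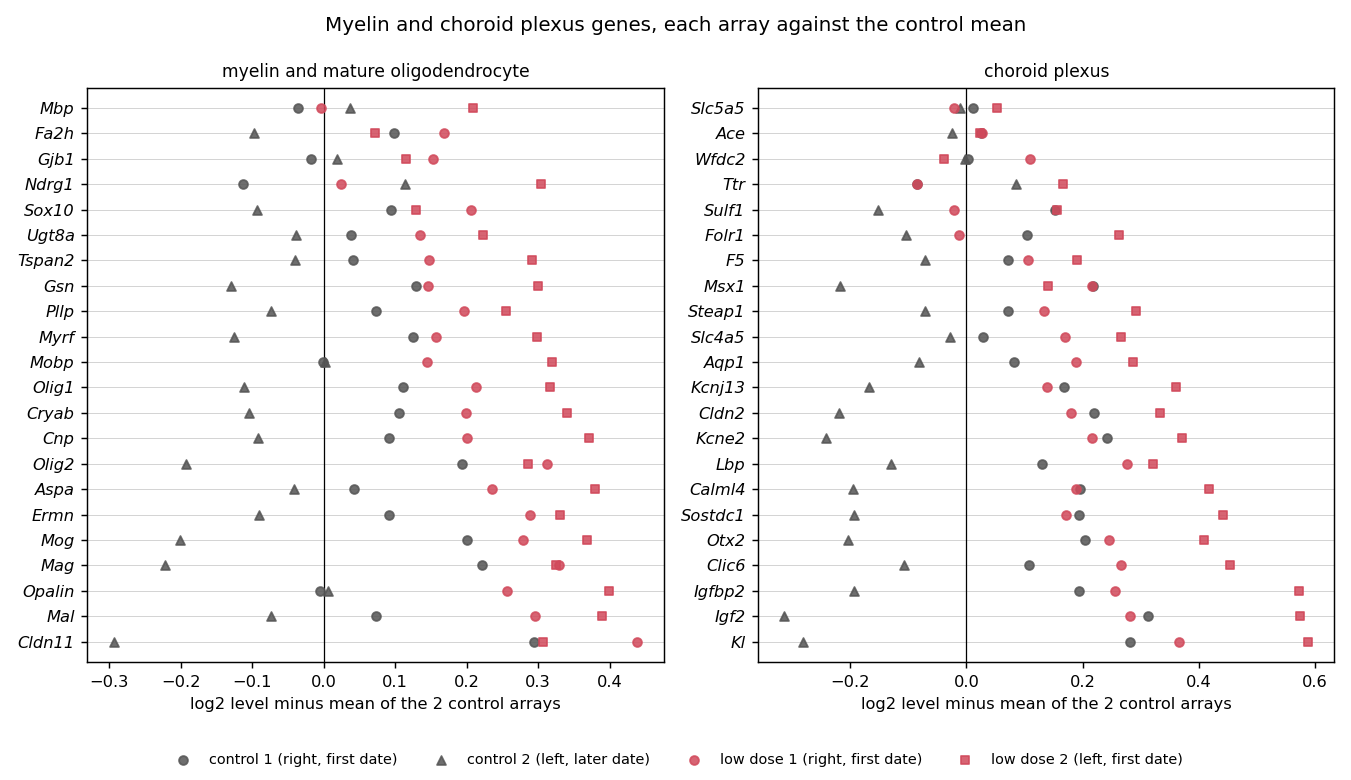
Log2 level of each myelin gene (left panel, 22 genes) and each choroid plexus gene (right panel, 22 genes) on the control arrays (grey) and low dose arrays (red), minus the mean of the controls; shape gives side and date. Low dose 1 (red circles) lies above control 1 (grey circles) for nearly all myelin genes, with a median of 0.11, whereas the choroid plexus genes have a median of 0.00 between the same arrays.

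Choroid plexus genes were also higher, but mostly against control 2. The choroid plexus is the epithelium in the ventricles that makes cerebrospinal fluid, and it lies against the hippocampus, so pieces can enter a dissection. All 22 tested genes had a higher mean, with a median of 0.24, and 9 were higher without overlap (13.4% of all genes were). Without control 1 that count was 19, for which the share of all genes was not computed. The median of all genes was 0.09 against control 2 and -0.02 against control 1. Against control 1 the median was 0.11, made up of 0.00 for low dose 1 and 0.20 for low dose 2, and against control 2 it was 0.41. Without control 2 the count was 9, as with both controls, where 18.7% of all genes lay above control 1.

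Kl, which encodes the anti-ageing co-receptor Klotho, read 9.64 on control 1, 9.07 on control 2, 9.72 on low dose 1 and 9.94 on low dose 2, a difference of 0.48 (SE 0.15, limma adjusted p = 1.00) and of 0.20 against control 1. Control 2 was the low array, and high dose 2 of the same date read 9.80. Igfbp2 and Clic6, an insulin-like growth factor binding protein and a chloride channel protein of the epithelium, had differences of 0.41 and 0.36, and 0.22 and 0.25 against control 1. A second Clic6 probe set above the filter gave 0.16, and 0.05 against control 1. Otx2, the factor that keeps plexus identity, had 0.33. Ttr, the most abundant product of the plexus, read 14.92 and 15.09 on the controls and 14.92 and 15.17 at the low dose, a difference of 0.04, and its other 3 probe sets gave 0.06 to 0.24. The serotonin receptor gene Htr2c, which is abundant in this epithelium, read 11.13 and 11.12 on the controls and 11.28 and 11.48 at the low dose, a difference of 0.26 without overlap. Whether Htr2c followed the plexus genes was not tested.

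Other tissue at the edge of the hippocampus was read too. Genes of the meninges and fibroblasts had a median of 0.13 over 19 genes but -0.01 against control 1, with Igf2 at 0.43 (0.11 against control 1) and Dcn at -0.30. Ependyma had a median of 0.11 over 10 genes and 0.04 against control 1, with 0 genes apart between the groups (21.2% of all genes were). Fmod and Ptgds, a matrix protein of the meninges and a prostaglandin D synthase made there, differed between the low dose pools by -0.72 and -0.56 (low dose 1 minus low dose 2), and with Avp (0.92) and Ccn2 (-0.73) they were the only genes of 11743 for which the low dose pools were more than 0.5 apart.

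**Figure D4:**
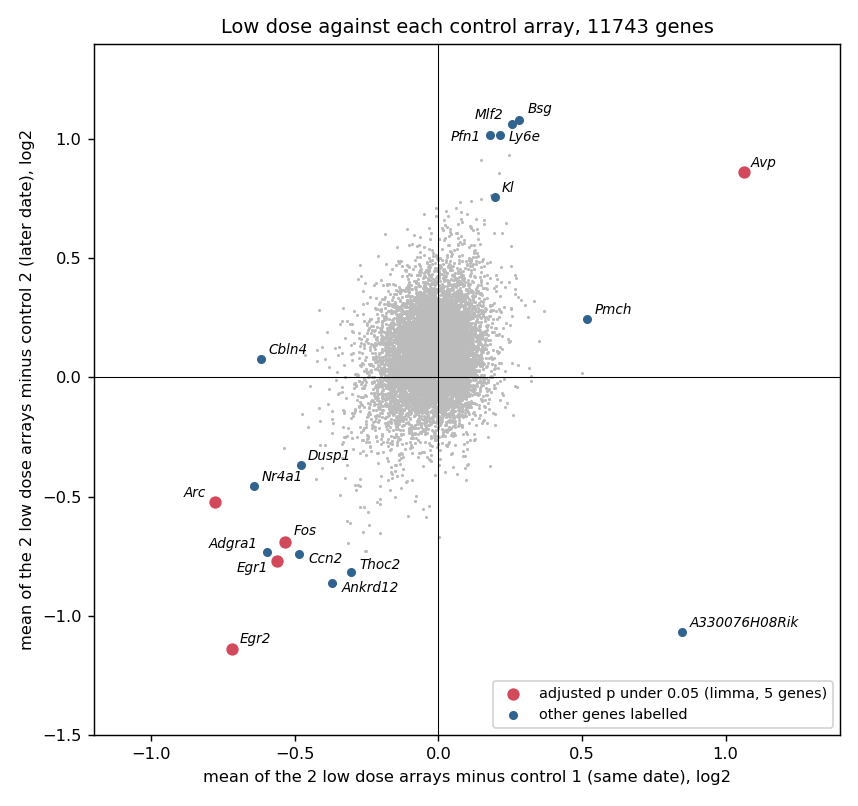
Each of the 11743 tested genes by its low dose mean minus control 1 (same hybridization date, x axis) and minus control 2 (later date, y axis), both in log2 units, with genes past the threshold in red and other genes named in the text in blue. Egr2, Egr1, Arc and Fos lie far from 0 on both axes, Bsg and Mlf2 lie near 0.3 on the x axis and above 1 on the y axis, and A330076H08Rik has opposite signs.

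After the called genes, named genes were taken by size among those with an unadjusted p under 0.01, groups apart and both low dose arrays on the same side of control 1, a condition that 42 higher and 32 lower genes met. The choice fixes their direction, and their values are given as a description. The highest were Bsg, a chaperone of lactate transporters (0.68, limma adjusted p = 0.581), Mlf2 (0.66), Ly6e (0.61), the actin-binding gene Pfn1 (0.60), Get3 of the tail-anchored protein pathway (0.59), Tecr of fatty acid elongation (0.53) and Rnf167, a ubiquitin ligase gene (0.53). Bsg read 11.59 on control 1, 10.79 on control 2, 11.84 on low dose 1 and 11.89 on low dose 2, with 11.39 and 10.98 at the high dose. Its difference was 0.28 against control 1 and 1.08 against control 2. Mlf2 read 10.38 and 9.57 on the controls and 10.67 and 10.60 at the low dose, with 9.54 on high dose 2. Other probe sets above the filter gave 0.14 for Ly6e (0.03 against control 1) and 0.51 for Tecr. In all 7 genes control 2 was the lowest of the 4 arrays and high dose 2, of the same date, lay below high dose 1. Their differences lay between 0.15 and 0.28 against control 1 and between 0.86 and 1.08 against control 2. With RIN as a covariate Bsg had a difference of -0.01, Mlf2 -0.14, Ly6e -0.12 and Pfn1 -0.10. Further higher genes were the proteasome gene Psmb7 (0.48), the vesicle gene Vamp1 (0.45), Caly, which binds dopamine receptors (0.44), and Fxyd1, a regulator of the sodium pump (0.41), beside Kl and Igfbp2.

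Lower genes were named by the same rule. Adgra1, an adhesion receptor gene, read 10.13 and 10.27 on the controls and 9.58 and 9.49 at the low dose, a difference of -0.66 (SE 0.18, limma adjusted p = 1.00), with 9.37 on high dose 1 and 10.40 on high dose 2. Against control 1 it was -0.60. Its other probe sets gave -0.49 and -0.09. Ankrd12, a chromatin cofactor gene, had -0.62, and -0.37 against control 1, and its other probe sets ran from -0.43 to -0.00. Thoc2, of mRNA export, had -0.56 and -0.31, and its other probe sets gave -0.31 and 0.08. Beside Ccn2 and Nr4a1, given above, the remaining lower genes were Csmd1 (-0.51), Ppig (-0.49), the phosphodiesterase gene Pde1a (-0.46), B230216N24Rik (-0.46) and the synaptic adhesion gene Mdga2 (-0.46). Other probe sets above the filter gave -0.21 and -0.02 for Ppig, -0.12 for B230216N24Rik and 0.02 for Mdga2. The other probe sets of Csmd1 and Pde1a were not above the filter. For each of the 8 genes other than Ccn2 and Nr4a1 control 2 was the highest of the 4 arrays, and high dose 2 lay above high dose 1. None of these 8 genes or of the first 7 higher genes passed with the date as a block, and with RIN as a covariate Thoc2 had a difference of 0.07, Ppig 0.05 and Csmd1 0.00.

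With the hybridization date as a block, which removes the shift shared by control 2 and high dose 2, 21 genes passed (0.179% of those tested), 5 higher and 16 lower. All 5 genes called without the block were among them, with Avp at 1.06, Egr2 at -0.82, Arc at -0.74, Egr1 at -0.57 and Fos at -0.55. In this fit all genes shared 1 estimate of the spread, so its p-values rest on that estimate. More genes induced by activity passed: Nr4a1 fell by 0.66 (limma adjusted p = 4.83e-07), Ccn2 by 0.54 (0.00026), Dusp1 by 0.48 (0.00321) and Nr4a2 by 0.45 (0.0138).

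Of 20 tested neocortical layer genes 4 passed with the block, all lower: Ccn2 and Nr4a2, named above, Tbr1, a factor of deep-layer neurons that fell by 0.44, and Cux2, a factor of upper layers that also fell by 0.44. The other probe sets of Cux2, also above the filter, gave differences of 0.06 and -0.01 without the block. Outside the neocortical list, Arpp21, a cAMP-regulated phosphoprotein gene, fell by 0.45 and Cbln4, a secreted synaptic organiser, by 0.58. Sbk1 (-0.42), Tshz3 (-0.41), Sgtb (-0.41) and the splicing factor gene Tra2a (-0.40) were the other genes that fell. Cbln4 read 9.60 on control 1 against 8.91 on control 2, 8.96 on low dose 1 and 9.00 on low dose 2, so that only control 1 was high among these arrays. Tbr1 had the same arrangement, with 9.84 on control 1 and 9.28, 9.34 and 9.41 on the others. Without the block the differences of Cbln4 and Tbr1 were -0.27 and -0.18 with overlapping groups. The groups also overlapped for Sbk1 (-0.17) and Tra2a (-0.15), and not for Tshz3 (-0.27) and Sgtb (-0.42). The second probe set of Sbk1 gave 0.03, and the other Tra2a probe sets above the filter gave -0.13 to 0.00.

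The higher genes with the block were Avp, A330076H08Rik (0.58), Kl (0.44), Clic6 (0.44) and Pmch (0.44). The second probe set of Clic6 gave 0.16 without the block. A330076H08Rik, an unnamed transcript, read 7.73 on control 1, 9.65 on control 2, 8.53 on low dose 1 and 8.63 on low dose 2. The controls lay on either side of the low dose, so the difference was -0.11 without the block, 0.85 against control 1 and -1.07 against control 2, and its second probe set gave -0.20.

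Markers of neighbouring forebrain regions were read for the same reason. Of 20 tested neocortical layer genes 16 had a lower mean, 5 were lower without overlap and 12 had both low dose arrays below control 1 (7.78% and 35.2% of all genes), and the median was -0.08, or -0.13 against control 1. Without control 1 the count lower without overlap was 8, for which the share of all genes was not computed. Without control 2 it was 12, beside 35.2% of all genes. The list's median against control 1 was -0.21 for low dose 1 and -0.05 for low dose 2. Beside Ccn2, Nr4a2 and Cux2 the lowest were Cplx3, a complexin of deep-layer neurons (8.80 and 8.74 on the controls, 8.24 and 8.68 at the low dose, -0.31) and the activity-regulated factor Mef2c (-0.26). Relative to the control mean the list's median was -0.16 on low dose 1 and 0.01 on low dose 2. The part of neocortical tissue in the falls of Egr2, Egr1, Arc and Fos was not tested.

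Striatal genes had a median of -0.09 over 16 tested, with 13 lower, but 0.01 against control 1. Drd1, the dopamine receptor gene of direct-pathway neurons, read 9.43 on control 1, 9.91 on control 2, and 9.26 and 9.40 at the low dose, a difference of -0.34 without overlap and of -0.11 against control 1. Drd2 was not above the filter. Thalamic and habenular genes had a median of 0.06 over 17 and 0.04 against control 1.

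Within the hippocampus, genes of CA2 and CA3 were read first. Of 22 tested, 18 had a higher mean (67.6% of all genes did), 8 were higher and 2 lower without overlap (13.4% and 7.78% of all genes were), and the median was 0.15, or 0.06 against control 1 and -0.00 with RIN as a covariate. Cpne4, a calcium-binding protein of CA3, read 10.98 and 10.61 on the controls and 11.06 and 11.17 at the low dose, a difference of 0.32. Grik4, the kainate receptor subunit of mossy fibre synapses, read 8.81 and 8.72 on the controls and 8.97 and 9.04 at the low dose, a difference of 0.24 and of 0.19 against control 1. Iyd and Rgs14 had 0.20 and 0.23. Both low dose arrays exceeded both controls in these 4 genes.

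Granule cell genes had a median of 0.07 over 19 and -0.01 against control 1. Prox1, the factor that maintains granule cell identity, read 8.47 and 8.31 on the controls and 8.16 and 8.17 at the low dose, a difference of -0.23 without overlap, while Tdo2 had 0.18 and Calb1 0.06. CA1 genes had a median of 0.10 over 14 and -0.03 against control 1, with Fibcd1 at 0.25 and Wfs1 at -0.02. Genes of adult neurogenesis had a median of 0.05 over 17 and -0.01 against control 1. Dcx, the marker of immature neurons, read 8.92 and 8.95 on the controls and 8.65 and 8.88 at the low dose, a difference of -0.17. Among interneuron genes, the fast-spiking marker Pvalb had 0.30 and Reln -0.18, both without overlap, and the median of 24 was 0.04.

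Other glial and vascular cells stayed near the median of all genes once control 1 was the reference. The median against control 1 was 0.00 for 22 astrocyte genes, 0.00 for 20 microglial genes, 0.05 for 16 endothelial genes and 0.04 for 11 genes of pericytes and smooth muscle. The astrocyte marker Gfap had a difference of 0.07 and Apoe 0.17, and the microglial genes C1qa, P2ry12 and Cx3cr1 had 0.21, 0.18 and -0.13.

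Of the proteins that venlafaxine binds, the serotonin transporter gene Slc6a4 was not above the filter, at 7.14 to 7.41 on these arrays. Monoamine neurons have their cell bodies in the brainstem, so RNA of their transporters and synthetic enzymes is scarce in the hippocampus. Slc6a2, the noradrenaline transporter gene, read 7.77 and 7.81 on the controls and 7.88 and 7.77 at the low dose, a difference of 0.03. Of 23 genes of monoamine transport, synthesis and breakdown 12 were tested, 11 had a higher mean and 0 passed, with a median of 0.06 and of 0.03 against control 1. Maoa, the monoamine oxidase that prefers serotonin and noradrenaline, had 0.00, Maob 0.12, and Ddc, the decarboxylase of monoamine synthesis, 0.20 without overlap (8.60 and 8.69 on the controls, 8.84 and 8.86 at the low dose).

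Of 13 serotonin receptor genes 8 were tested and 0 passed, with 5 higher, 3 lower and a median of 0.04, or -0.02 against control 1. Htr1a, the inhibitory receptor of pyramidal cells, read 9.04 and 8.80 on the controls and 8.89 and 8.93 at the low dose, a difference of -0.01. Htr4, which raises cAMP, had 0.03, Htr5a -0.14 and Htr7 0.05, and the largest difference was that of Htr2c, given with the choroid plexus. Genes of cAMP signalling and CREB had 13 of 26 lower and a median of 0.01 (-0.07 against control 1), with Creb1 at 0.09. A second Creb1 probe set above the filter gave -0.34. The neurotrophin list had a median of 0.04 over 21 genes and -0.06 against control 1. Ntrk2, the receptor of BDNF, read 12.33 and 12.36 on the controls and 12.17 and 12.36 at the low dose, a difference of -0.08, and Fgf1 had 0.30 without overlap.

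Corticosteroid signalling gave differences in both directions. Of 23 tested genes 12 were higher and 11 lower, 7 were lower and 2 higher without overlap (7.78% and 13.4% of all genes were), and the median was 0.01, or -0.07 against control 1. The glucocorticoid receptor gene Nr3c1 and the mineralocorticoid receptor gene Nr3c2 had 0.05 and 0.13. Other Nr3c1 probe sets above the filter gave -0.22 and 0.00. Fkbp5, a co-chaperone strongly induced by glucocorticoids, read 10.33 and 10.26 on the controls and 10.30 and 10.46 at the low dose, a difference of 0.08. Klf9, another target of the receptor, read 13.13 and 13.41 on the controls and 12.80 and 12.94 at the low dose, a difference of -0.40 without overlap, and 13.43 on high dose 2. The cell cycle inhibitor gene Cdkn1a had -0.30 (8.84 and 8.70 against 8.41 and 8.53), and -0.37 against control 1. The zinc finger gene Zbtb16 had -0.20, and Dusp1 and Per1, which are also activity genes, are counted in the same list.

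The clock list had a median of -0.05 over 20 genes, with 12 lower, and -0.08 against control 1. Npas2, a partner of BMAL1, read 9.20 and 9.01 on the controls and 8.82 and 8.92 at the low dose, a difference of -0.24 without overlap. The output gene Dbp had 0.12 and Per3 0.15, and the time of day of the dissections is not given in the sources used here. Among 14 Kruppel-like factors 7 were higher and 7 lower, with 4 lower without overlap (Klf9, Klf10, Klf5 at -0.22 and Klf7 at -0.05) and 1 higher (Klf11 at 0.17). Of all genes 7.78% were lower and 13.4% higher without overlap.

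Receptors of glutamate were read by class, and no test compared the classes. All 6 metabotropic receptor genes had a lower mean and both low dose arrays below control 1, with a median of -0.09, or -0.19 against control 1 and -0.03 against control 2, and 2 were lower without overlap (7.78% of all genes were). Grm3, a receptor of astrocytes and presynaptic endings, read 10.82 and 10.89 on the controls and 10.52 and 10.62 at the low dose, a difference of -0.29, and Grm4 had -0.12. Of the 14 AMPA, NMDA and kainate subunits tested 6 had a lower mean and 8 had both low dose arrays below control 1 (35.2% of all genes did), and the median was 0.05, or -0.07 against control 1, with Gria1 at 0.22. GABA receptor subunits had a median of 0.03 over 9, and Gabrd, which carries tonic inhibition, had -0.12.

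**Figure D5:**
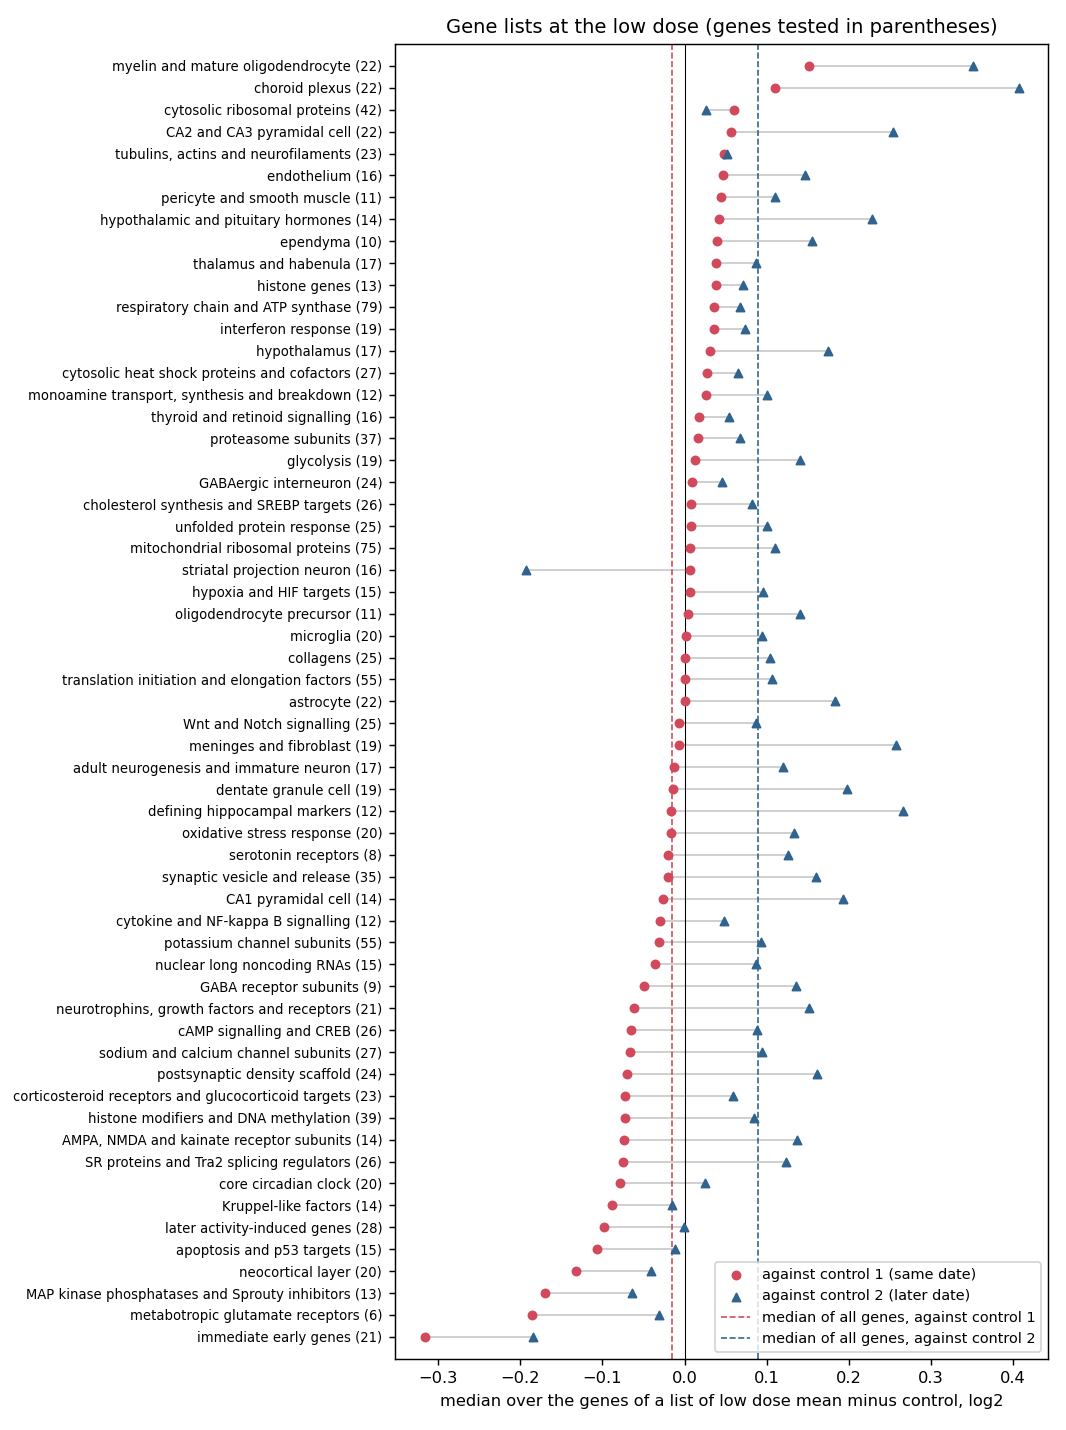
Median over the genes of each list of the low dose mean minus control 1 (red circles) and minus control 2 (blue triangles) in log2 units, with the number of genes tested in parentheses and the medians of all genes as dashed lines. Immediate early genes are lowest against control 1 (-0.32) and stand at -0.18 against control 2, where striatal genes are at -0.19, and myelin genes are highest against control 1 (0.15).

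Synaptic and housekeeping lists had medians close to 0 at the low dose. The synaptic vesicle list had a median of 0.05 over 35 genes, and -0.02 and 0.16 against control 1 and control 2. Syp, which encodes the vesicle protein synaptophysin, read 10.81 on control 1, 10.20 on control 2, and 10.86 and 10.80 at the low dose. The postsynaptic scaffold list had a median of 0.03 over 24, potassium channels 0.02 over 55, and sodium and calcium channels 0.02 over 27. Against control 1, 42 cytosolic ribosomal protein genes had a median of 0.06 (0.03 against control 2), 79 genes of the respiratory chain 0.04, 37 proteasome genes 0.02, 55 translation factors 0.00 and 75 mitochondrial ribosomal protein genes 0.01. In each of these 5 lists the median of low dose 1 minus control 1 was negative, between -0.07 and -0.04, and that of low dose 2 minus control 1 positive, between 0.07 and 0.16. The low dose pools thus lay on either side of control 1 in these lists.

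Chaperones of the cytosol had a median of 0.04 over 27 genes, with 6 higher and 2 lower without overlap (13.4% and 7.78% of all genes were). The small heat shock gene Hspb1 read 9.60 and 9.30 on the controls and 9.64 and 10.06 at the low dose, a difference of 0.40. The inducible Hsp70 gene Hspa1b read 11.06 and 10.83 on the controls and 11.12 and 11.34 at the low dose, a difference of 0.28 without overlap, against 10.69 and 10.61 at the high dose. It had the lowest adjusted p of low against high dose, at 0.258 for a difference of 0.58 (limma). Its near-identical copy Hspa1a, with which a probe set can share signal, had 0.18. Dnajb5, a cofactor of Hsp70, had -0.29 without overlap. Genes of the unfolded protein response had a median of 0.06 over 25 (0.01 against control 1), with Syvn1 at 0.22.

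Immune lists were near 0 against control 1, with medians of 0.04 for 19 interferon response genes and -0.03 for 12 cytokine genes. Ifitm3 read 9.69 and 9.15 on the controls and 9.72 and 9.92 at the low dose, a difference of 0.40, and 0.13 against control 1. Apoptosis and p53 targets had 6 of 15 lower without overlap (7.78% of all genes were), among them Cdkn1a, Apaf1 (-0.19) and Bcl2 (-0.15), and a median of -0.02, or -0.11 against control 1. Splicing regulators of the SR group had a median of 0.00 over 26, with Srrm2 at -0.49 (11.49 and 11.97 on the controls, 11.24 and 11.24 at the low dose, and 12.20 on high dose 2).

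Set against the high dose directly, the low dose gave 0 genes past the threshold (0.0%; limma, lowest adjusted p = 0.258), and 729 genes had an unadjusted p under 0.05, of which 700 were higher at the low dose. The 4 genes that fell against the controls were at similar levels at both doses. The high dose arrays read 8.01 and 8.01 for Egr2, 12.42 and 12.62 for Egr1, 10.01 and 9.90 for Arc and 10.50 and 10.59 for Fos, and low minus high dose was -0.09, -0.13, -0.15 and -0.02 in the same order, with SE 0.12, 0.11, 0.11 and 0.11. Egr3 and Fosb, which lay less far below the controls at the low dose, had 0.25 and 0.23 for the same difference. The doses share the same control arrays, so their values are given side by side only. Without control 1 or without control 2, 152 genes passed between the doses, and 117 passed without high dose 1.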

How the data were processed

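Hippocampal RNA of each pool was hybridized to Affymetrix arrays, 1 pool per array. The table deposited by the authors gives log2 intensities after RMA in R 3.0.1, per the submitters' processing notes. The table holds 45101 probe sets; 64 control probe sets and those with several symbols (932) or none (9160) were left out, and names came from the platform annotation (34741 of 34945 matched by Entrez number). Each gene was represented by its probe set of highest mean and kept if above the array median on at least 2 arrays, which left 11743 genes. Limma 3.58.1 (R 4.3.3) fitted all 6 arrays with 1 coefficient per dose and no covariate, with Benjamini-Hochberg adjustment and a threshold of 0.05; the procedure was tested on simulated data. Alternatives changed the date, side, replicate or RIN terms, the filter, the probe set rule, the normalization, the prior or the arrays used. Lists are described by counts and medians beside those of all genes. Named genes were those past the threshold with or without the date block, further genes with an unadjusted p under 0.01 by size (up to 14 in each direction), up to 5 members of each list and a panel; others named in the text were chosen after their values were seen. Members and lists were chosen with earlier results of these data known.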

Additional observations from a re-analysis of the deposited data

How the results depend on the processing

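Against the 5 genes called between low dose and control, 21 passed with the date as a block, 18 over first-date arrays, 22 over control and low dose arrays alone, 17 with side as a block, 20 with RIN as a covariate and 17 with a trended, robust prior. None (0) passed in limma without the filter, with probe sets averaged, with every probe set or after quantile normalization (446, 296, 500 and 610 at an unadjusted p under 0.05). Leaving out 1 array gave 0 (without low dose 1, 182 unadjusted) to 546 (without control 1). Between the doses, where 0 passed, the counts were 3 with the date block, 9 over first-date arrays, 11 with side, 4 with RIN, 25 with the trended prior and 0 to 152 leaving out 1 array. The replicate number equals the side within control and low dose, and the deviations of same-numbered arrays had a correlation over genes of 0.0765 for control and low dose, 0.5395 for control and high dose and 0.1332 for low and high dose, so the numbers were not taken as pairs; the replicate block gave 32 genes over 6 arrays and 15 over control and low dose arrays, and 45 between the doses. In the block, RIN, first-date and control-and-low fits, and in those without a control or high dose array, all genes shared 1 estimate of the spread. A330076H08Rik turned from -0.11 to 0.58 with the date block, 0.85 over first-date arrays or without control 2, and 1.53 with RIN. The cause of these shifts was not tested.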

Other observations

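Probe sets with no gene symbol or with several were fitted apart. Of 3232 tested, 0 passed the threshold (limma, lowest adjusted p = 0.997), and 102 had an unadjusted p under 0.05, of which 30 were higher and 72 lower at the low dose. Their log2 fold changes ran from -0.76 to 0.86.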
